A study of Mus musculus with 24 samples.

Results

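Cholecystokinin is a peptide hormone and neurotransmitter encoded by Cck, and it acts through a pair of G protein-coupled receptors encoded by Cckar and Cckbr. The 3 genes were found by their names on the array, where 4 of 39429 probes that are not controls carried one of them: 1 for Cck, 1 for Cckar and 2 for Cckbr. They were chosen by the measured values of Cck, whose difference between early- and late-onset tumors ranked among the largest in these same arrays, so that difference is described here without a test.

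The tumors came from the mammary glands of female BALB/c mice that had all received the carcinogen 7,12-dimethylbenz[a]anthracene (DMBA), and each of the 24 was hybridized against Universal Mouse Reference RNA, a pool of RNA from mouse cell lines. Mice stayed from peripuberty on either a diet high in animal fat (HFD) or one low in fat (LFD), or were switched in young adulthood from HFD to LFD (HFD-LFD) or from LFD to HFD (LFD-HFD). The labels sort the tumors by diet and onset into 5 LFD late, 4 LFD-HFD late, 6 HFD late, 3 HFD-LFD late, 3 HFD early and 3 HFD-LFD early tumors, so early tumors came only from mice that ate HFD in peripuberty. No tissue from mice without DMBA and no normal gland was among the arrays, and the labels do not say whether each tumor came from a separate mouse.

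CCK is best known from the small intestine, where endocrine cells release it after a meal that holds fat or protein, and from the brain, where neurons make it. The precursor is cut by prohormone convertases, trimmed by a carboxypeptidase, amidated at its end and sulfated on a tyrosine. The product of Cckar, on the gallbladder and pancreas, binds sulfated CCK far better than gastrin, whereas the product of Cckbr, on the stomach and in the brain, binds gastrin and CCK alike. Both receptors couple mainly to Gq, which raises calcium through phospholipase C and activates protein kinase C.

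Values are log2 ratios of tumor over reference signal, normalized within each array for the trend of the ratio with brightness. A ratio of 0 lies on that trend and need not mean equal signals. In HFD-LFD late 1, for example, tumor and reference signals for Cck were 5727 and 4866 at a ratio of -0.61. Tumor signals are also given in scanner units after subtraction of the local background. Tumor RNA is taken to be in Cy5, as the sample labels state. The methods name the reference as the red dye instead. Over 13633 probes the median SD between arrays was 0.472 in Cy5 and 0.191 in Cy3 on the log2 scale, and a reference common to all arrays should vary less. On 7 arrays (slides 6 and 7) Cy5 was dimmed over a block of rows, and spots in those rows were set missing. The Cck probe lay outside these rows on every slide. On each array 65.3% to 89.1% of probes gave a tumor signal well above background. Against the label of mammary tumor, the epithelial genes Krt8 and Cdh1 were well above background on all 24 arrays.

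A pair of probe sequences shows what the arrays measured. The junction probe of Cckbr is shown because its target spans 220 bases of mm9 for 60 bases of probe, so that it crosses an intron and reads spliced RNA, and the last 30 bases of the Cck probe are shown because every Cck value rests on that single probe.
Cckbr junction probe, chr7:112582327-112582546, plus strand: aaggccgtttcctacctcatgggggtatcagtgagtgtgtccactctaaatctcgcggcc
Cck probe, bases 31 to 60, within chr9:121398943-121399002, minus strand: tgctattaaagagatttccttctgcccctc
The second Cckbr probe lies at chr7:112584581-112584640 on the plus strand, and the Cckar probe at chr5:54090045-54090104 on the minus strand. All positions are those of mm9 in the array's own annotation, and whether a probe lies in coding sequence was not looked up, since no mm9 annotation was used here.

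Cck was measured in every tumor: its probe was well above background in both channels on 24 of 24 arrays and saturated on none. The highest group mean was that of LFD-HFD late tumors, with log2 ratios of 1.18, 2.66, 1.73 and 1.20, and tumor signals from 22386 to 65885. The 5 LFD late tumors fell apart, with 0.54, 1.28 and 2.27 in some and -4.15 and -3.71 in the others. The 3 HFD-LFD late tumors were at -0.61, 2.12 and -3.63. In the 6 HFD late tumors the ratio ran from -4.99 through a median of -1.70 to 2.40. Ratios in HFD late 1, LFD late 5 and HFD-LFD late 2 exceeded those of 3 of the 4 LFD-HFD tumors. Thus LFD-HFD was the only late group in which every tumor exceeded the reference, and the other 3 late groups each held tumors on both sides of it.

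Early tumors were uniformly low in Cck. The 3 HFD-LFD early tumors had ratios of -4.13, -3.58 and -4.03, with tumor signals from 534 to 917. The 3 HFD early tumors were lower still, at -5.80, -5.86 and -5.37, with tumor signals of 86.6 to 153, yet all well above background. The reference signal for Cck stayed between 2373 and 5076 on the 24 arrays, against 86.6 to 65885 for the tumors, so the spread in the ratio came from the tumor channel.

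**Figure D1:**
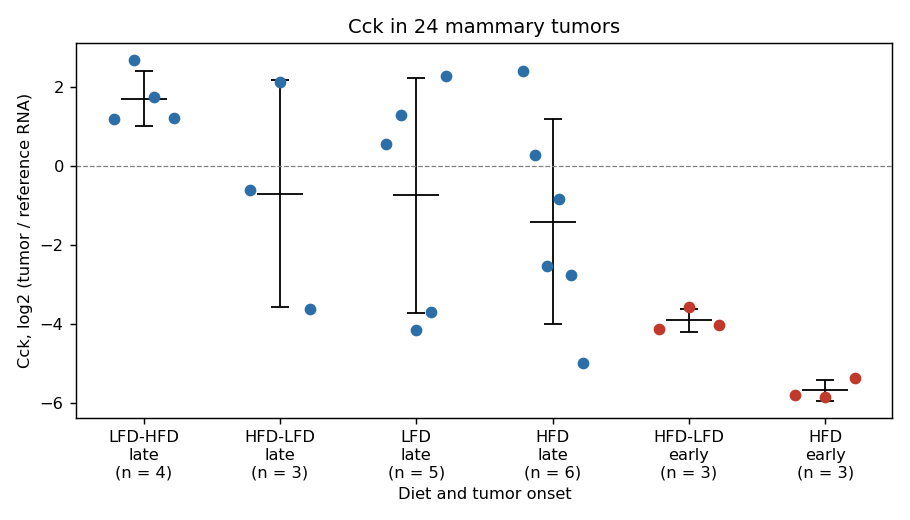
Log2 ratio of Cck in tumor over reference RNA (vertical axis) for each of 24 tumors, by diet and onset (horizontal axis). Points are tumors (blue late, red early), and black bars are the mean and SD of each group. All 4 LFD-HFD late tumors lie above 0, the 6 early tumors lie between -5.86 and -3.58, and the other late groups spread over both ranges.

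By group mean, the order was LFD-HFD late (1.69 ± 0.69, SD, n = 4), HFD-LFD late (-0.71 ± 2.88, SD, n = 3), LFD late (-0.75 ± 2.97, SD, n = 5), HFD late (-1.41 ± 2.59, SD, n = 6), HFD-LFD early (-3.91 ± 0.29, SD, n = 3) and HFD early (-5.68 ± 0.27, SD, n = 3). The mean of early tumors was -4.79 ± 1.0 (SD, n = 6) and that of late tumors -0.42 ± 2.56 (SD, n = 18), a difference of -4.37 or 20.7-fold, which is the contrast that chose the gene. Late tumors alone spanned 201-fold. Of the 18 late tumors, 14 were above every early tumor and 10 had a ratio over 0, as did 0 of the 6 early tumors. In a piece of tumor, fewer cells of a type and less RNA per cell cannot be told apart.

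The 4 late tumors that reached down into the early range were LFD late 3 and 4, HFD-LFD late 3 and HFD late 6, and 3 of these were on slides 6 and 7. Without those slides, 10 of 11 late tumors were above every early tumor, and the difference between early and late was -5.02. It was -5.58 among the arrays of the first scan session (3 early, 8 late) and -4.99 in the second (3 early, 3 late), and the third session held no early tumor. The nearest late tumor above the early range, HFD late 5 at -2.77, stood 0.81 above the highest early tumor at -3.58.

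The arrays of the late tumors allow diet to be tested, since the genes were chosen by onset and not by diet. The same late tumors entered the difference by onset, though, and earlier results of these data were known. HFD in peripuberty (HFD and HFD-LFD late tumors) went with a Cck ratio 1.53 lower than LFD in peripuberty (SE 1.0, 95% interval -3.62 to 0.56), which did not pass the test (limma adjusted p = 0.616). HFD in adulthood (HFD and LFD-HFD late tumors) went with a difference of 0.87 (SE 1.0, 95% interval -1.22 to 2.96, limma adjusted p = 0.930). Each comparison called 0% of 20968 genes, although 1949 genes for the peripubertal diet and 1153 for the adult diet had an unadjusted limma p under 0.05. The intervals leave room for a difference of several-fold. Without slides 6 and 7 the peripubertal difference was -0.57, but only 1 LFD-HFD late tumor was left in that fit.

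The 6 pairs of late diet groups were also compared on Cck alone by two-sided exact permutation tests. The widest gap, 3.11 between LFD-HFD and HFD late tumors, had an exact permutation p of 0.0524, or 0.314 adjusted over the 6 pairs. LFD-HFD exceeded HFD-LFD late tumors by 2.40 (exact permutation p = 0.143, adjusted 0.397) and LFD late tumors by 2.45 (exact permutation p = 0.198, adjusted 0.397). Among HFD-LFD, LFD and HFD late tumors the means differed by at most 0.71, with adjusted exact permutation p of 0.90 and above, so no neighbors in the order of late groups differed beyond their spread. Within the third scan session, the 3 LFD-HFD tumors averaged 1.68, whereas the 2 HFD late tumors averaged -3.88 and the single LFD and HFD-LFD late tumors were at -3.71 and -3.63. In the first session, the 4 LFD and 4 HFD late tumors averaged -0.01 and -0.18.

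The early tumors of the 2 diets did not overlap in Cck: HFD early was 1.76 below HFD-LFD early. That gap had an exact permutation p of 0.1, the smallest that 3 against 3 tumors can give, and did not pass the test against the spread pooled over all 6 groups (SE 1.68, limma adjusted p = 0.533), a comparison that called 12.4% of genes. All 3 HFD early tumors were on slide 2 and all 3 HFD-LFD early tumors on slide 4, and here the slide cannot be told apart from the diet. With the scan session as a term, which late tumors of other diets then inform, the gap was -3.37 (SE 2.27, limma adjusted p = 0.516). The early-late change was -4.26 in HFD and -3.21 in HFD-LFD mice, and the difference between these changes, -1.06, was within its error (SE 2.22, limma adjusted p = 0.906, in a comparison that called 0.00954% of genes).

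The receptors were near the limit of detection. Cckar, for the receptor that prefers CCK, was read on 20 arrays, since its row was dimmed on slide 6, and its tumor signal was well above background on 4 of them: HFD late 2 and 3 at 56.9 and 101, HFD-LFD early 3 at 107 and HFD early 3 at 51.8. On no measured LFD, LFD-HFD or HFD-LFD late array was it well above background, with tumor signals from -3.40 to 5.97. On dimmed slide 6, though, the spot of LFD late 4, set missing here, read 60.8 and was flagged well above background. The reference was well above background on all 20 arrays, at 61.3 to 136. Cckar therefore failed the signal filter and entered no test, and its ratios, from -1.34 to -0.43, are bounds on most arrays. No fold is given, because no group had more than 2 arrays that measured the tumor signal.

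Cckbr, for the receptor shared with gastrin, passed the filter through its junction probe, which was well above background in 13 of 20 tumors at signals of up to 103. The reference pool was well above background on 8 of these 20 arrays, at signals from 6.56 to 77.9, so on most of them the ratio rests on a denominator near background. In the 3 HFD early tumors the signals were 40.8, 45.1 and 43.4, all well above background. In the 3 HFD-LFD early tumors they were 27.2, 18.8 and 30.7, none well above background. No array of the second scan session, late tumors included, was well above background for this probe. In the first session LFD late 5 was, at 17.1. Ratios were 0.04 to 0.16 in HFD early and -0.25 to 0.02 in HFD-LFD early tumors. The difference of 0.21 did not pass the test (SE 0.13, 95% interval -0.07 to 0.48, limma adjusted p = 0.330), and the slides differed as they did for Cck.

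Across onset, the mean of the junction probe was 0.01 ± 0.15 (SD, n = 6) for early tumors and 0.04 ± 0.16 (SD, n = 14) for late ones, without a test. The peripubertal diet moved Cckbr by 0.09 (SE 0.08, limma adjusted p = 0.707) and the adult diet by -0.03 (SE 0.08, limma adjusted p = 0.978). For these fits, the 4 arrays of slide 6 were imputed. An offset of 50 added before the logarithm pulls ratios of signals this dim toward 0.

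The second Cckbr probe, outside the dimmed rows, failed the filter, with a tumor signal well above background on 7 of 24 arrays. It read 246 in HFD late 1 and -5.94 to 62.4 in the other 23 tumors. In that tumor the junction probe gave a signal of 30.8, near its median of 27.1 over 20 tumors, although its ratio of 0.28 was the highest of the 20. Thus the tumor signals of the 2 probes disagreed there.

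**Figure D2:**
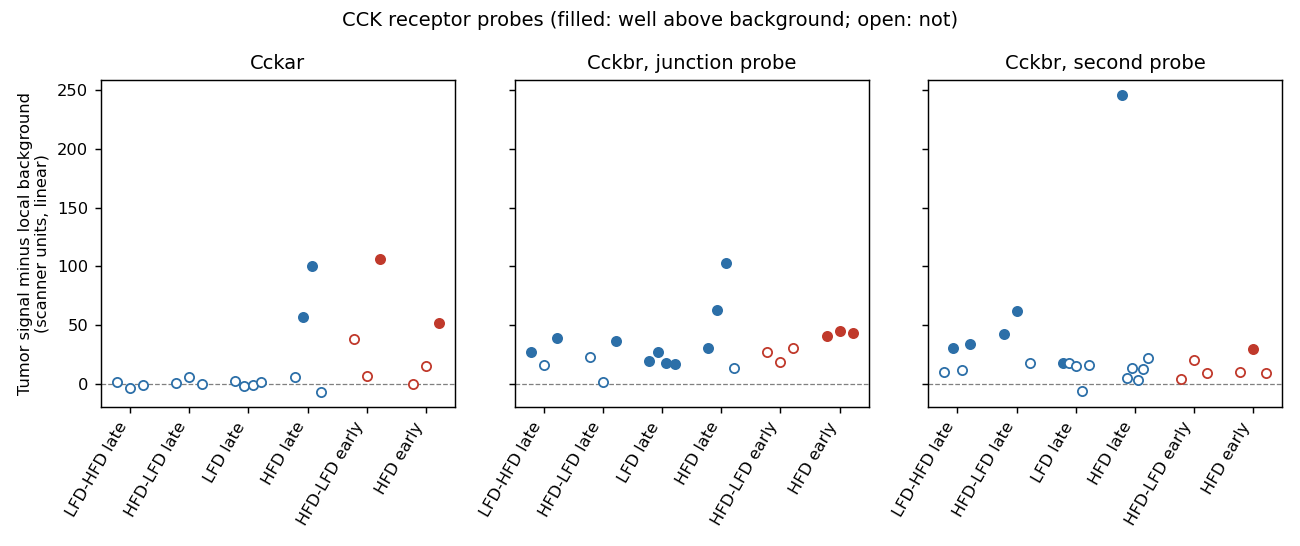
Tumor signal after subtraction of the local background, in scanner units on a linear scale (vertical axis), for the probes of the CCK receptors by diet and onset (horizontal axis). Each point is a tumor, filled where the spot was well above background, and arrays on which the probe lay in a dimmed row are left out. Most points lie under 50 units, and the highest is 246 in a HFD late tumor on the second Cckbr probe.

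The 18 late tumors, in which Cck ranged most widely, were used to find genes with a similar pattern. Among 20947 genes measured in at least 14 late tumors, Pearson correlation with Cck had a median of 0.03, with 206 genes at 0.8 or above and 105 at -0.8 or below. The late tumors share slides and scan sessions, and 10 lay above and 8 below a Cck ratio of 0, so that a correlation over them mostly sets these tumors apart. The 6 genes most like Cck were Synm (r = 0.94), Nexn (0.93), Dpep1 (0.93), Sult5a1 (0.93), Fbxo2 (0.92) and Nacc2 (0.92). Synm encodes the intermediate filament protein synemin and Nexn the actin-binding protein nexilin, both abundant in muscle. Dpep1 encodes a membrane dipeptidase, Sult5a1 a sulfotransferase, Fbxo2 a ubiquitin ligase subunit and Nacc2 a transcriptional repressor.

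In the 11 late tumors outside slides 6 and 7 the correlations of these 6 genes ran from 0.89 for Dpep1 to 0.96 for Fbxo2, and without the 2 tumors farthest from the median of Cck from 0.88 to 0.92. By ranks they were looser, with Spearman's rho from 0.71 for Sult5a1 to 0.93 for Dpep1. Sult5a1, Fbxo2 and Nacc2 were measured in 14 late tumors and Dpep1 in 15, the others in all 18. Early tumors did not sit equally on these lines: Dpep1 averaged -2.84 ± 0.30 (SD, n = 6) in early tumors, at the bottom of its late range, whereas Synm averaged -1.13 ± 0.31 (SD, n = 6) with late tumors down to -2.94.

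The 4 genes most opposite to Cck were a probe without a gene name (A_55_P2103706, r = -0.95 over 15 tumors), LOC100504508 (-0.94 over 14), Nasp (-0.93 over 18) and Nmral1 (-0.91 over 15). Nasp encodes a histone chaperone that is most abundant in dividing cells. Its log2 ratio was 0.97 in HFD late 6, the late tumor with the least Cck, and -0.06 in LFD-HFD late 2, the one with the most. The lowest Nasp ratio, -0.33, was that of LFD-HFD late 3. Early tumors averaged 0.61 ± 0.14 (SD, n = 6) for Nasp, and late tumors 0.12 ± 0.39 (SD, n = 18).

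**Figure D3:**
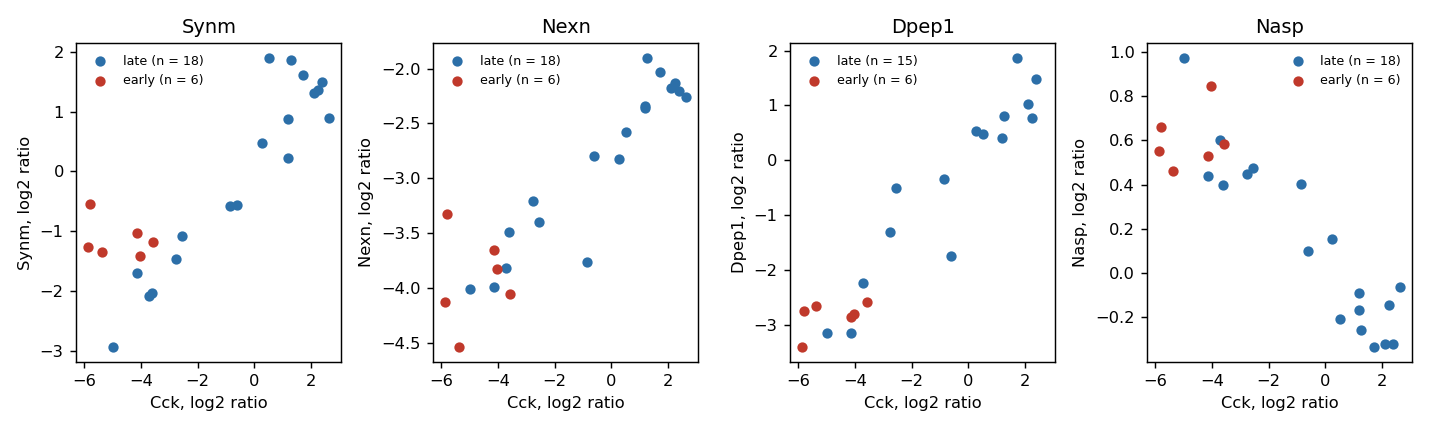
Log2 ratio of Synm, Nexn, Dpep1 and Nasp (vertical axes) against that of Cck (horizontal axes) in late (blue) and early (red) tumors, each point a tumor. Over late tumors r was 0.94, 0.93, 0.93 and -0.93. Early tumors lie at the low end of Cck, and those of Synm lie above the late tumors with least Cck.

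Related peptide hormones did not follow Cck. Of 19 listed hormones of gut and nerve, 16 passed the signal filter, and their correlations with Cck over late tumors ran from -0.37 to 0.41. Between early and late tumors, 19.7% of all genes passed the test, 7.59% higher and 12.1% lower in early tumors, with a median difference of -0.06. Of the 16 hormones, 1 was higher and 3 were lower, with a median of -0.35. Neuropeptide Y, Npy, was higher in early tumors by 2.81 (SE 0.53, limma adjusted p = 0.00152), at 0.95 ± 1.27 (SD, n = 6) against -1.85 ± 1.16 (SD, n = 18). Somatostatin, Sst, which inhibits the release of CCK, was lower by 0.67 (SE 0.19, limma adjusted p = 0.0153), and ghrelin, Ghrl, was lower by 0.29 (SE 0.10, limma adjusted p = 0.0486). The third, Mrln, is myoregulin, a muscle peptide that shares an older symbol with motilin and is no hormone. Among early tumors, HFD minus HFD-LFD was -1.19 for Sst (limma adjusted p = 0.000583) and -0.46 for Ghrl (limma adjusted p = 0.0430). That comparison called 12.4% of genes. The lower values of Sst and Ghrl thus lay mainly in HFD early tumors, whose slide cannot be told apart from the diet. Gastrin, Gast, the closest relative of Cck and the other ligand of Cckbr, differed by -0.07 (SE 0.11, limma adjusted p = 0.663).

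With slide as a random block, 1 of the 16 was higher and 1 lower: Npy (limma adjusted p = 0.00951) and Sst (0.0380) kept their calls, whereas limma adjusted p was 0.117 for Ghrl and 0.101 for Mrln. Of the hormones named, Npy kept its call in 14 of 15 alternative settings and Ghrl in 5. Centring each array on its median in place of loess moved the median of all genes to 0.20 and the share of calls that were higher from 38.6% to 80.7%, and the tumor channel alone gave 57.9%. Under that centring the median of the hormones was -0.10, Ghrl turned to 0.10 and Sst was at -0.29, neither of them called.

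Genes of a fixed list for peptide processing moved both ways. Being listed does not mean that a gene acts on the CCK precursor. Of 15 listed, 14 passed the filter, 3 of them higher and 3 lower in early tumors (median -0.23), beside 7.59% and 12.1% of all genes. The convertase Pcsk6 was higher by 1.95 (SE 0.32, limma adjusted p = 0.000647), with 4 arrays imputed, at 1.34 in early and -0.61 in late tumors, and it ran against Cck within late tumors (r = -0.85, n = 14). Pcsk2, a convertase of neurons and endocrine cells that cuts pro-CCK, was higher by 1.02 (SE 0.31, limma adjusted p = 0.0255), also with 4 arrays imputed, and Aopep, an aminopeptidase, by 0.72 (SE 0.24, limma adjusted p = 0.0355). Carboxypeptidase E, Cpe, which trims the cut peptide, was lower by 1.34 (SE 0.41, limma adjusted p = 0.0242). Pam, which amidates it, was lower by 0.67 (SE 0.17, limma adjusted p = 0.0108, 3 arrays imputed), and Pcsk1n, an inhibitor of the convertase made from Pcsk1, was lower by 0.70 (SE 0.18, limma adjusted p = 0.0106). Pcsk1 itself differed by -0.15 (SE 0.18, limma adjusted p = 0.581, tumor signal well above background on 14 arrays). Among early tumors, HFD minus HFD-LFD was -0.82 for Pcsk1n (limma adjusted p = 0.0343), again on separate slides.

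With slide as a random block, Pcsk6 kept its call (limma adjusted p = 0.0071), whereas adjusted p was 0.0872 for Cpe, 0.0582 for Pam, 0.0551 for Pcsk1n, 0.0660 for Pcsk2 and 0.108 for Aopep (limma), leaving 1 higher and 0 lower. That block also called fewer of all genes. Under median centring the median of the list turned to 0.12, with 4 higher and 0 lower, where most calls over all genes were higher too.

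Among 32 genes of receptor signalling, all kept by the filter, 2 were higher and 9 lower in early tumors (median -0.32). Of all genes, 7.59% were higher and 12.1% lower. The inositol trisphosphate receptor gene Itpr3 was lower by 0.98 (SE 0.17, limma adjusted p = 0.000752), and the calcium/calmodulin kinase gene Camk4 was higher by 1.16 (SE 0.34, limma adjusted p = 0.0202). Each kept its call in 14 of 15 alternative settings. Rgs2, a brake on Gq signals, was lower by 1.72 (SE 0.56, limma adjusted p = 0.0327, 4 arrays imputed), Prkca was lower by 0.89 (SE 0.27, limma adjusted p = 0.0234, 4 arrays imputed) and Camk2d was lower by 0.85 (SE 0.27, limma adjusted p = 0.0290), the latter pair being kinases activated by calcium. Adcy3, an adenylyl cyclase, was higher by 0.63 (SE 0.21, limma adjusted p = 0.0371, 3 arrays imputed). With slide as a random block 1 was higher and 2 were lower, and with median centring 3 and 2. Over all genes, the random block called fewer, and under median centring most calls were higher.

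Within late tumors, 7 of the 32 signalling genes (21.9%) correlated with Cck at 0.6 or above, as did 6.71% of all genes. They included Plcb1 (r = 0.85, n = 14), a phospholipase C that Gq activates, Prkca (0.83, n = 14) and Camk2d (0.82, n = 18). The G protein gene Gnaq was at 0.25 (n = 18).

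Markers of neuroendocrine cells, among which CCK-producing cells are usually counted, gave a median correlation of 0.08 with Cck over 12 genes. Chga, Chgb and Scg3, which encode granins of the secretory granules, were at 0.19, 0.30 and 0.25, whereas Eno2 was at 0.66 (n = 15), Ncam1 at 0.65 (n = 18) and Uchl1 at 0.51 (n = 15). Thus 2 of the 12 (16.7%) were at 0.6 or above, as were 6.71% of all genes. Scg2 was well above background on 0 arrays. Between early and late tumors 5 of the 12 were lower and 0 higher (median -0.38), beside 12.1% and 7.59% of all genes. Scg3 was lower by 1.20 (SE 0.41, limma adjusted p = 0.0399), the adhesion molecule gene Ncam1 was lower by 1.03 (SE 0.26, limma adjusted p = 0.00968), Chga was lower by 0.90 (SE 0.31, limma adjusted p = 0.0427, 3 arrays imputed) and Chgb was lower by 0.49 (SE 0.16, limma adjusted p = 0.0293). Only Ncam1 and Scg3 of these 4 kept the call with slide as a random block. With median centring none of the 4 did, with limma adjusted p from 0.0812 for Ncam1 to 0.544 for Chgb. Among early tumors, HFD minus HFD-LFD was -1.56 for Chga (limma adjusted p = 0.0336) and -0.88 for Chgb (limma adjusted p = 0.00702). The lower values of Chga and Chgb thus lay mainly in HFD early tumors, whose slide cannot be told apart from the diet. Of 8 neuronal markers, correlations ran from -0.52 to 0.20, and 1 was higher and 1 lower in early tumors, beside 7.59% and 12.1% of all genes. Tubb3 was higher by 2.49 (limma adjusted p = 0.00123) and kept its call in 14 of 15 alternative settings. Gap43 was lower by 0.73 (limma adjusted p = 0.0336) and lost its call with slide as a random block (limma adjusted p = 0.0894).

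Contractile markers went with Cck. The list of basal and myoepithelial markers, which also mark smooth muscle and myofibroblasts in part, had a median correlation of 0.76. Of its 10 genes, 6 (60%) correlated with Cck at 0.6 or above over late tumors, beside 6.71% of all genes. They were Mylk (r = 0.92, n = 15), which encodes the kinase of myosin light chain, Cnn1 (0.86, n = 18), Tagln (0.84, n = 18), Myh11 (0.82, n = 14), the oxytocin receptor gene Oxtr (0.79, n = 18) and Acta2 (0.73, n = 18). The basal keratin genes did not share this, with Krt5 at 0.37, Krt14 at -0.29 and Krt17 at -0.15, nor did Trp63 at 0.09. The mean log2 ratio of the 10 genes ran from -0.66 to 0.50 over early tumors and from -0.54 to 1.98 over late tumors, and it was 1.14 to 1.76 in the 4 LFD-HFD late tumors, where Cck was high throughout. Of the 10, 3 passed the test between early and late tumors, all of them lower in early tumors, beside 12.1% of all genes. Cnn1 was lower by 3.01 in early tumors (SE 1.03, limma adjusted p = 0.0407), Myh11 was lower by 2.64 (SE 0.67, limma adjusted p = 0.00919, 4 arrays imputed) and Tagln was lower by 1.65 (SE 0.55, limma adjusted p = 0.0363). Myh11 kept its call with slide as a random block, and Cnn1 and Tagln did not (limma adjusted p = 0.0779 and 0.0530).

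Luminal markers gave a median correlation of 0.45 over 15 genes, led by the receptor and regulator genes of hormone-sensing cells: Prlr (r = 0.78), Foxa1 (0.71) and Esr1 (0.63). General epithelial genes were mixed. Krt19 was at 0.45, Krt18 at 0.38 and Krt8 at 0.36, whereas Krt7 was at 0.02, Epcam at -0.03 and Cdh1 at -0.21. Averaged over the 15 genes, the log2 ratio was -0.04 to 1.81 in early tumors and -0.99 to 3.12 in late tumors. In early tumors 8 of 15 were lower and 0 higher (median -1.81), beside 12.1% and 7.59% of all genes. Prlr, the prolactin receptor gene, was at 0.13 in early and 4.06 in late tumors, a difference of -3.93 (SE 0.87, limma adjusted p = 0.0044), and Gata3, encoding a luminal transcription factor, was lower by 1.97 (SE 0.34, limma adjusted p = 0.000804, 4 arrays imputed). Foxa1 was lower by 3.25 (SE 1.1, limma adjusted p = 0.0399) and Krt19 was lower by 2.77 (SE 0.96, limma adjusted p = 0.0440). With slide as a random block 2 of the 15 passed, and fewer of all genes were called.

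Markers of squamous differentiation ran the other way. All 12 correlated negatively with Cck in late tumors, from -0.78 for Sprr1a to -0.20 for Lor, with a median of -0.56. Averaged over the 12, the log2 ratio was -4.14 to -3.85 in the 4 LFD-HFD late tumors, -4.14 to 3.35 over all late tumors and -2.83 to 0.36 in early tumors. Their median difference between early and late tumors was 1.88, yet 0 of 12 passed the test, beside 7.59% of all genes higher and 12.1% lower. The nearest was Sprr1a at 2.34 (SE 0.90, limma adjusted p = 0.0663). With median centring 6 were higher, and with array weights all 12. Array weights called 7662 of 20968 genes in either direction, and under median centring most calls over all genes were higher.

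Adipocyte markers had a median correlation with Cck of 0.55 over 9 genes, from 0.26 for Fabp4 to 0.70 for Retn, with 4 of the 9 (44.4%) at 0.6 or above beside 6.71% of all genes. Of the 9, 1, Pparg, passed the test between early and late tumors at -1.03 (SE 0.31, limma adjusted p = 0.0243), beside 12.1% of all genes lower. Skeletal muscle markers were between 0.24 and 0.38 with 0 of 7 called, milk protein genes between -0.17 and 0.27 with 0 of 7 called, and macrophage markers between -0.33 and 0.13 with 0 of 6 called. Beside these, 19.7% of all genes were called between early and late tumors. In the fibroblast list the median was -0.01, but Postn was at 0.80 (n = 15) and Dcn at 0.63 (n = 15), and both passed the test between early and late tumors, at -1.90 (SE 0.42, limma adjusted p = 0.00447) and -2.52 (SE 0.49, limma adjusted p = 0.00185), each with 3 arrays imputed. In the endothelial list the median was 0.17, with Vwf at 0.80 (n = 18), and in early tumors Vwf was lower by 2.64 (SE 0.62, limma adjusted p = 0.00635). The part that the content of any of these cells had in the Cck values was not tested.

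**Figure D4:**
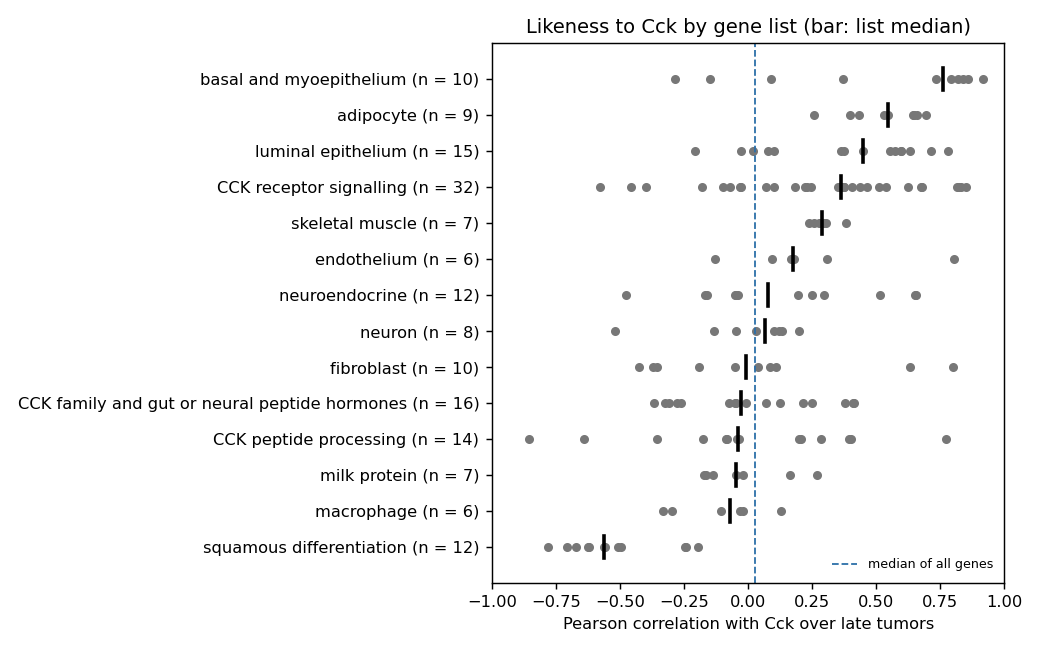
Pearson correlation with Cck over late tumors (horizontal axis) for each gene (grey points) of 14 lists (vertical axis), with the list median as a black bar and the median of all genes, 0.03, as a dashed line. Basal and myoepithelial markers have the highest median, 0.76, and squamous markers the lowest, -0.56, while hormones and processing genes center near 0.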

How the data were processed

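Gene expression was read from 24 scanner files of 2-color arrays. As deposited by the authors, the intensity columns hold mean spot brightness and median local background in each dye. The log10 column deposited by the authors holds dye-normalized ratios and served as an alternative. Background was corrected by normexp (offset 50, fitted without outlier-flagged spots) and ratios were normalized by loess in limma 3.58.1 and R 4.3.3. Outlier spots and rows of dimmed Cy5 were set missing. A probe was kept (27319 were) if tumor and reference signals both exceeded 10 on 80% or more of its measured arrays, missing values (7.41%) were imputed from 10 nearest probes, and the brightest probe stood for each gene. Models of 6 group means, or of onset, were fitted by limma over 20968 genes with Benjamini-Hochberg adjustment at 0.05, and p-values measure the spread between these samples, which may in part be technical. The number of arrays and, for the receptors, signal over background limit the precision. Correlations used measured values only. The members and gene lists were chosen with earlier results of these data known. Named genes were all members, the 6 genes most like and 4 most opposite to Cck, and list genes with the largest called changes or that the text turns on. Scripts were tested on simulated data. The file headers name Feature Extraction 11.0.1.1, the submitters' processing notes 8.5.1.1. Slides and scan sessions come from the file headers.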

Additional observations from a re-analysis of the deposited data

Results flagged for a closer look

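The second Cckbr probe in HFD late tumors held a single tumor far from the rest. HFD late 1 had a log2 ratio of 0.96, whereas the nearest of the other 5 HFD late tumors was at -0.54, a gap of 0.79 of the whole range of the 6. In that tumor the junction probe of Cckbr had a ratio of 0.28, beside 0.25 in HFD late 4, and Cck was at 2.40, the highest of the HFD late tumors. It was 1 of 14 groups examined in this way, and chance alone flags about 1 group in 20.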

How the results depend on the processing

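The difference in Cck between early and late tumors chose the gene, so its stability here is a description and lends it no support. The lower Cck ratio of early tumors kept its direction in 15 of 15 alternative settings (-5.64 to -4.08) and with each tumor left out (-4.64 to -4.16). The lowest, with slide as a fixed block, rests on slide 4, the only slide that held both onsets. There 3 HFD-LFD early tumors were set against 1 late tumor of another diet, LFD-HFD. No diet test of Cck or Cckbr passed the threshold in any setting. For Cck, adjusted p ran from 0.185 to 0.9999 for the peripubertal diet, from 0.744 to 0.9999 for the adult diet and from 0.123 to 0.674 for early HFD against HFD-LFD. The gap between HFD-LFD and LFD late tumors, 0.04, turned to -0.0907 with the scanner software's ratio, -0.0217 with median centring and -0.0996 with the tumor channel alone. With tumors left out it ran from -1.37 to 1.51, that between HFD-LFD and HFD late from -0.71 to 2.17, that between LFD and HFD late from -0.0926 to 1.51, and the difference of the early-late changes from -2.47 to 0.40. Genes called between early and late tumors numbered 4121, against 2373 with dimmed rows kept, 2109 with slide as a random block, 7662 with array weights and 112 with slide as a fixed block, and 2255 (without HFD early replicate 2) to 4933 with a tumor left out. Calls between the early diets ranged from 0 (scan session as a block) to 8240 (array weights) against 2607, those for the difference of changes from 0 to 729 against 2, for the peripubertal diet from 0 to 760 and for the adult diet from 0 to 33 against 0 each. Of the 10 genes most like or opposite to Cck, 3 remained over all 24 tumors and 4 by ranks. Slide as a fixed block, normexp on all spots and the permutation of early tumors were added after the data were seen. No paired analysis was made, since the labels link no tumors across groups. They give no replicate numbers either, and those used here follow the order of the samples. Low signal limits the receptor values.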
